A study of Rattus norvegicus with 12 samples.

Results

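The lipid-sensing and hepatocyte transcription factors of the liver comprised 9 of the 4736 genes with a probe set of their own, Srebf1, Ppara, Nr1h3, Nr1h4, Rxra, Hnf4a, Cebpa, Cebpb and Foxa3. They were followed through the 14 probe sets, of 8740 tested, whose platform annotation gave 1 of these symbols and no other. Hnf4a had 3 probe sets, Cebpa, Cebpb and Foxa3 had 2 each, and the other members had 1 each. The members were listed by name and not by how their values moved.

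RNA from rat liver was hybridised to 12 single-colour Affymetrix arrays, 3 for each of 4 diets, and each array held a pool of RNA. The diets were 70% fat as corn oil, 5% fat as corn oil, 70% fat as olive oil and 5% fat as olive oil. All rats were male Sprague-Dawley animals of 150 g at the start, and all were fed through a cannula in the stomach by total enteral nutrition for 21 days, at 17% above their total calories. Energy was equal between the diets, with carbohydrate making up for fat, so 70% against 5% fat is also less against more carbohydrate. No normally fed group was among the arrays, and the sources used here do not say how many rats made up a pool. The p-values therefore rest on the spread between pools, which may be technical. Every deposited value is a log2 distance from the median of its probe set over the 12 arrays, so the values order the diets for a probe set and carry no absolute level. For the same reason they cannot show whether a factor or a liver marker was present or absent.

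Liver cells read their supply of fat, sterols and carbohydrate through a small set of transcription factors. SREBP-1c, a product of Srebf1, drives the genes of fatty acid synthesis and is itself made under insulin and under the oxysterol receptor LXR alpha, encoded by Nr1h3, and unsaturated fatty acids are known to lower its mature form. PPAR alpha, encoded by Ppara, binds fatty acids and drives their oxidation. FXR, encoded by Nr1h4, binds bile acids, and RXR alpha, encoded by Rxra, is the partner with which PPAR alpha, LXR alpha and FXR bind DNA. HNF-4 alpha, C/EBP alpha, C/EBP beta and FOXA3, encoded by Hnf4a, Cebpa, Cebpb and Foxa3, hold up the hepatocyte programme, and several of these proteins are controlled by ligands, cleavage or phosphorylation, which an array of transcripts does not measure.

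Control probe sets at both ends of the actin and GAPDH transcripts differed between the arrays, and so did markers of other cell types. The 3'/5' index, the mean over both transcripts of the 3' minus the 5' control probe set, averaged 0.71 ± 0.48 with 70% corn oil and 1.28 ± 0.28 with 5% corn oil, against -0.35 ± 0.10 with 70% olive oil and -0.36 ± 0.06 with 5% olive oil (SD, n = 3 each). Corn oil arrays stood 1.35 above olive oil arrays, with p = 0.005 in an exact two-sided permutation test within fat levels, the smallest p that these 400 regroupings allow. Pool 2 of 70% corn oil, at 0.16, was the lowest corn oil array. The summed level of the 9 measured stellate cell and fibroblast markers ran from 0.50 to 2.68 with 70% corn oil and from 1.28 to 3.25 with 5% corn oil, against -0.55 to -0.18 with 70% olive oil and -2.94 to -0.43 with 5% olive oil. The sum of the 8 measured hepatocyte markers ran from -1.28 to -0.16 with 70% corn oil and from -1.86 to -1.06 with 5% corn oil, against -0.67 to 0.99 with 70% olive oil and 0.23 to 1.51 with 5% olive oil. In pooled liver RNA, fewer cells of a type and less RNA per cell cannot be told apart.

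No factor passed the test with fat level. For 70% against 5% corn oil 0 of the 14 probe sets passed in limma at an adjusted p of 0.05, where 2.11% of all probe sets did, and 2 of the 14 had an unadjusted p under 0.05, where 18.8% of all did. With olive oil 0 of the 14 passed, where 0.435% of all did, and 3 had an unadjusted p under 0.05, where 8.46% of all did. In the mean of both fat effects 0 of the 14 passed, where 2.28% of all did, and 5 had an unadjusted p under 0.05, where 14.5% of all did. With so few of all probe sets called, 0 of 14 does not set the members apart. The median fat effect of the members was 0.15 with corn oil and -0.03 with olive oil, against -0.01 and 0.03 over all probe sets. Regardless of sign, the median size for the members was 0.21 with corn oil, 0.10 with olive oil and 0.13 in the mean of both. Over all probe sets it was 0.12, 0.09 and 0.08. The largest fat effects of the members in size were 0.45 with corn oil and -0.47 with olive oil. The 95% confidence intervals of the 14 effects lay between -0.53 and 0.89 with corn oil and between -0.94 and 0.60 with olive oil.

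**Figure D1:**
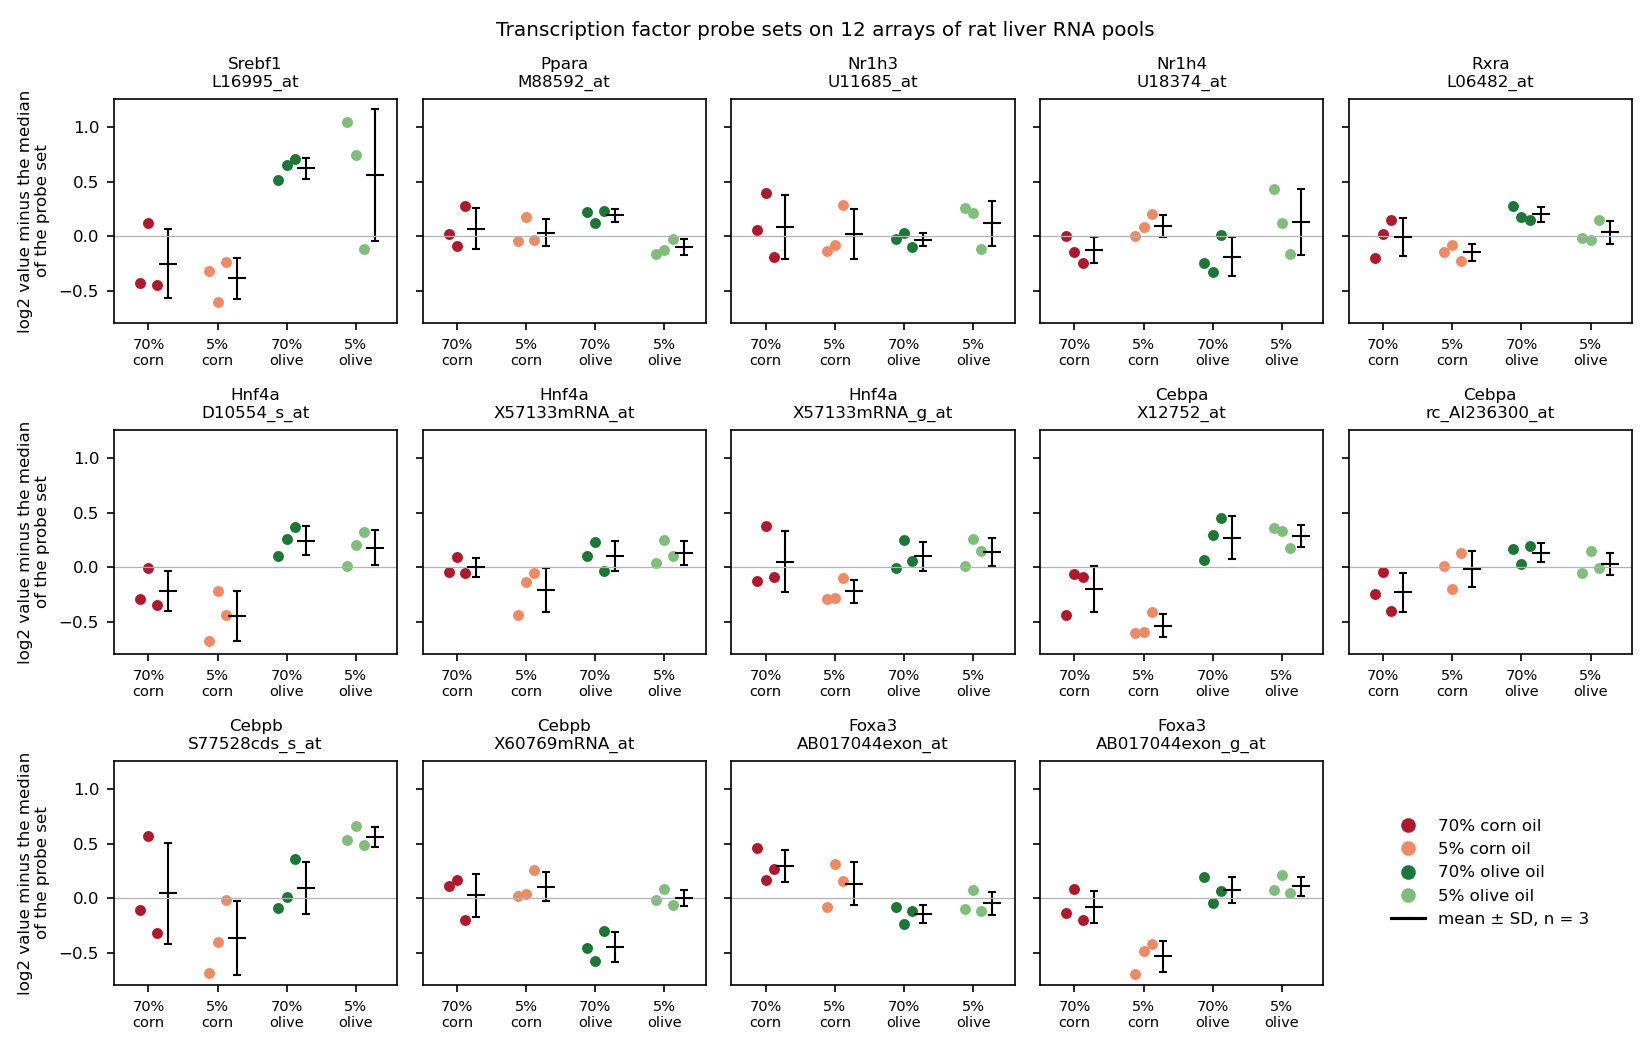
Log2 difference from the probe set's median over the 12 arrays for each of the 14 probe sets, with 1 point per array and a bar at the mean of each diet (n = 3 arrays). Srebf1 ran from -0.60 to 0.12 on the corn oil arrays and from -0.12 to 1.05 on the olive oil arrays, while the arrays at 70% and 5% fat overlapped with either oil.

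Srebf1, the lipogenic factor, was measured by L16995_at. Its values were -0.43, 0.12 and -0.44 with 70% corn oil, against -0.32, -0.60 and -0.24 with 5% corn oil. They were 0.52, 0.65 and 0.70 with 70% olive oil, against 1.05, 0.75 and -0.12 with 5% olive oil. The fat levels overlapped with either oil, and pool 3 of 5% olive oil lay more than 0.8 below the other pools of its diet. The fat effect was 0.13 ± 0.25 with corn oil (SE, 95% interval -0.40 to 0.67, adjusted p = 0.824) and 0.06 ± 0.25 with olive oil (95% interval -0.47 to 0.60, adjusted p = 0.976). At each fat level every corn oil array of Srebf1 lay below every olive oil array. This was not particular to Srebf1, as 7 of the 14 member probe sets did not overlap between the oils at 70% fat and 8 at 5% fat. The share of all probe sets that did not overlap at each level is not given here. Srebf1 was lower with corn than with olive oil by a log2 difference of -0.91 ± 0.17 over both fat levels (adjusted p = 0.00234), -0.95 ± 0.25 at 5% fat (adjusted p = 0.0183) and -0.87 ± 0.25 at 70% fat (adjusted p = 0.0482). The call at 70% fat failed when any of 9 arrays was left out singly (adjusted p up to 0.142) and that at 5% fat when any of 3 was (adjusted p up to 0.0742), while the call over both levels held without each array in turn (adjusted p up to 0.008).

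More than 1 start is annotated for the rat gene Srebf1 in the RefSeq table, and their windows, from 250 bases before to 50 after the start, are shown because Srebf1 was called between the oils at both fat levels. Capitals mark matches on either strand to the GC box GGGCGG, to the CCAAT box CCAAT, to the TATA box TATAAA, to the E-box CACGTG, to the nuclear receptor half-site AGGTCA and to the C/EBP motif TTGCNNAA, and to the sterol regulatory element. Both windows lie on the minus strand of GRCr8.
Srebf1, upstream start, chr10:45529115-45529414: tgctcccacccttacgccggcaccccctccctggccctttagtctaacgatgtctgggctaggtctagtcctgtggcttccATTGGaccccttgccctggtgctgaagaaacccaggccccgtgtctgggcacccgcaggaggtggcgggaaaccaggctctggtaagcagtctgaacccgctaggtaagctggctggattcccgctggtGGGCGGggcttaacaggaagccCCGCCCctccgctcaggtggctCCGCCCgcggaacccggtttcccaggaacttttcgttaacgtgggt
Srebf1, downstream start, chr10:45518961-45519260: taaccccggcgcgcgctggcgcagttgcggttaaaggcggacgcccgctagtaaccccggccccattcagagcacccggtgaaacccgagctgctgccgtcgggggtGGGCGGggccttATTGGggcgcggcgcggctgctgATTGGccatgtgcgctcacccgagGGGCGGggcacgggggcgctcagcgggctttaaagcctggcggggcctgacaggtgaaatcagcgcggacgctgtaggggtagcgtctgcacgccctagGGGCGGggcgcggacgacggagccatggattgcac
Each window held GC boxes and at least 1 CCAAT box, and no exact match to the other motifs. This does not show that a window lacks a variant E-box or sterol element. Over all 33469 windows of the table, 33.1% held a GC box, 37.5% a CCAAT box, 14.2% a TATA box, 6.42% an E-box, 16.2% the half-site, 10.6% the C/EBP motif and 0.125% the sterol regulatory element. A match is a description of the letters, and which start gave the transcripts on these arrays was not measured.

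Ppara, the receptor for fatty acids, was measured by M88592_at. Its values were 0.02, -0.09 and 0.27 with 70% corn oil, against -0.04, 0.18 and -0.04 with 5% corn oil. With 70% olive oil they were 0.22, 0.13 and 0.23, against -0.16, -0.13 and -0.02 with 5% olive oil. The fat levels overlapped with corn oil, whereas with olive oil each array at 70% fat lay above each array at 5% fat. The fat effect was 0.04 ± 0.10 with corn oil (adjusted p = 0.889, 95% interval -0.19 to 0.26) and 0.29 ± 0.10 with olive oil (adjusted p = 0.406, 95% interval 0.07 to 0.52). The corn oil minus the olive oil fat effect was -0.26 ± 0.15 (95% interval -0.58 to 0.06, adjusted p = 0.502). Ppara gave a mean oil effect of 0.01 and was not called.

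Nr1h3, whose product LXR alpha binds oxysterols, gave 0.05, 0.39 and -0.19 with 70% corn oil, against -0.14, -0.08 and 0.28 with 5% corn oil (U11685_at). It gave -0.03, 0.03 and -0.10 with 70% olive oil, against 0.26, 0.21 and -0.12 with 5% olive oil. The arrays of the diets overlapped throughout, and the fat effects were 0.06 ± 0.16 with corn oil and -0.15 ± 0.16 with olive oil. Nr1h4, the bile acid receptor, gave 0.0018, -0.14 and -0.24 with 70% corn oil, against -0.0018, 0.09 and 0.20 with 5% corn oil (U18374_at). It gave -0.25, -0.33 and 0.01 with 70% olive oil, against 0.43, 0.12 and -0.17 with 5% olive oil. The fat levels overlapped with either oil, and the mean fat effect on Nr1h4 was -0.27 ± 0.10, which did not pass the test (adjusted p = 0.235). Rxra, the shared partner of these receptors, ran from -0.20 to 0.15 with 70% corn oil and from -0.23 to -0.08 with 5% corn oil (L06482_at). It ran from 0.15 to 0.28 with 70% olive oil, against -0.03 to 0.15 with 5% olive oil. The olive oil arrays at 70% fat lay above those at 5% fat by a narrow gap, and the effect was 0.17 ± 0.10 (adjusted p = 0.751).

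Hnf4a, a nuclear receptor that sustains the hepatocyte programme, was measured by 3 probe sets. They gave fat effects of 0.21 to 0.27 with corn oil and -0.04 to 0.06 with olive oil, and none passed the test. With D10554_s_at, whose suffix marks probes that can match several transcripts, the values were -0.29, -0.01 and -0.35 with 70% corn oil, against 0.10, 0.25 and 0.37 with 70% olive oil. They were -0.68, -0.22 and -0.44 with 5% corn oil, against 0.01, 0.21 and 0.32 with 5% olive oil. Each corn oil array lay below each olive oil array, which was so for 2 of the 14 member probe sets (the other is one of Cebpa), where 10.7% of all probe sets did not overlap. The mean oil effect was -0.54 ± 0.10 (adjusted p = 0.00135). The other 2 probe sets of Hnf4a were not called in that contrast. The mean oil effect of D10554_s_at minus theirs was -0.33 and -0.34 (exact permutation test, adjusted over 6 pairs, p = 0.015 and 0.0225).

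Foxa3, a forkhead factor that opens liver chromatin, came closest to the threshold with corn oil. Its probe set AB017044exon_g_at gave -0.14, 0.09 and -0.20 with 70% corn oil, against -0.70, -0.48 and -0.42 with 5% corn oil. Each array at 70% fat lay above each array at 5% fat, which was so for 1 of the 14 member probe sets, where 18.9% of all probe sets did not overlap in this contrast. The effect was 0.45 ± 0.11 (95% interval 0.22 to 0.68) and missed the threshold with adjusted p = 0.051. It was 0.51 with adjusted p = 0.0412 without pool 3 of 5% corn oil, and 0.29 with adjusted p = 0.355 in a fit that held the 3'/5' index as a covariate. With olive oil the same probe set gave 0.19, -0.04 and 0.07 at 70% fat, against 0.08, 0.21 and 0.04 at 5% fat, an effect of -0.04 ± 0.11. The corn oil effect exceeded the olive oil effect by 0.49 ± 0.15 (adjusted p = 0.333). The other probe set of Foxa3, AB017044exon_at, gave a corn oil fat effect of 0.16 ± 0.11.

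Cebpb, a C/EBP factor of the acute phase and of gluconeogenesis, was the member with the largest fat effects with olive oil. Its probe set X60769mRNA_at gave -0.46, -0.58 and -0.30 with 70% olive oil, against -0.02, 0.08 and -0.06 with 5% olive oil. With S77528cds_s_at the values were -0.09, 0.01 and 0.36 with 70% olive oil, against 0.53, 0.66 and 0.49 with 5% olive oil. With either probe set each array at 70% fat lay below each array at 5% fat. Including both, 4 of the 14 member probe sets did not overlap with olive oil, where 19.8% of all probe sets did not. The effects were -0.45 ± 0.11 (adjusted p = 0.173) for X60769mRNA_at and -0.47 ± 0.22 (adjusted p = 0.600) for S77528cds_s_at, and neither passed the test. With array weights, the effect for X60769mRNA_at was -0.49 with adjusted p = 0.00931. With corn oil the effects were -0.08 ± 0.11 for X60769mRNA_at and 0.41 ± 0.22 for S77528cds_s_at.

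Cebpa, the C/EBP factor of the resting hepatocyte, was measured by X12752_at and rc_AI236300_at, which gave fat effects of 0.34 ± 0.12 and -0.21 ± 0.11 with corn oil (adjusted p = 0.168 and 0.348). With X12752_at the values were -0.44, -0.07 and -0.09 with 70% corn oil, against 0.07, 0.29 and 0.46 with 70% olive oil. They were -0.60, -0.59 and -0.41 with 5% corn oil, against 0.36, 0.33 and 0.18 with 5% olive oil. Each corn oil array lay below each olive oil array, and the oil effect was -0.65 ± 0.09 over both levels (adjusted p = 0.000254). It was -0.83 at 5% fat (adjusted p = 0.000859) and -0.47 at 70% fat (adjusted p = 0.0384), and the call at 70% fat failed when any of 7 arrays was left out singly (adjusted p up to 0.139). The promoter window of Cebpa, on the plus strand of GRCr8, is shown because this factor also had a probe set called between the oils at both fat levels, with the capitals as for Srebf1.
Cebpa, chr1:96896334-96896633: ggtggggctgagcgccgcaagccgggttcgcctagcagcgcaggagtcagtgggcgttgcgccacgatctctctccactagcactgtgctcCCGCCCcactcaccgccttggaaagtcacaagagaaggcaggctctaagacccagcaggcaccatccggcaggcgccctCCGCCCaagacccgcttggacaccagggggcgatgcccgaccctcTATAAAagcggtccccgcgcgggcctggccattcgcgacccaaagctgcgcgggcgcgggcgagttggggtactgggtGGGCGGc
It held GC boxes and a TATA box. Of the 10 windows that the table gave for 8 of the members, 9 held a GC box and 5 a CCAAT box. A TATA box lay in 3 (Foxa3, Cebpa and Cebpb) and the C/EBP motif in 1 (Rxra). An exact match to the E-box, the half-site or the searched form of the sterol regulatory element lay in 0.

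The fat effect did not differ between the oils past the test for any member. In limma 0 of the 14 probe sets and 0% of all probe sets passed that interaction, and 3 of the 14 had an unadjusted p under 0.05, where 11.8% of all did. These 3 were S77528cds_s_at and X60769mRNA_at of Cebpb and AB017044exon_g_at of Foxa3, with differences of 0.88 ± 0.31, 0.37 ± 0.16 and 0.49 ± 0.15 (corn minus olive, adjusted p of 0.342, 0.406 and 0.333). All 3 differences were positive.

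**Figure D2:**
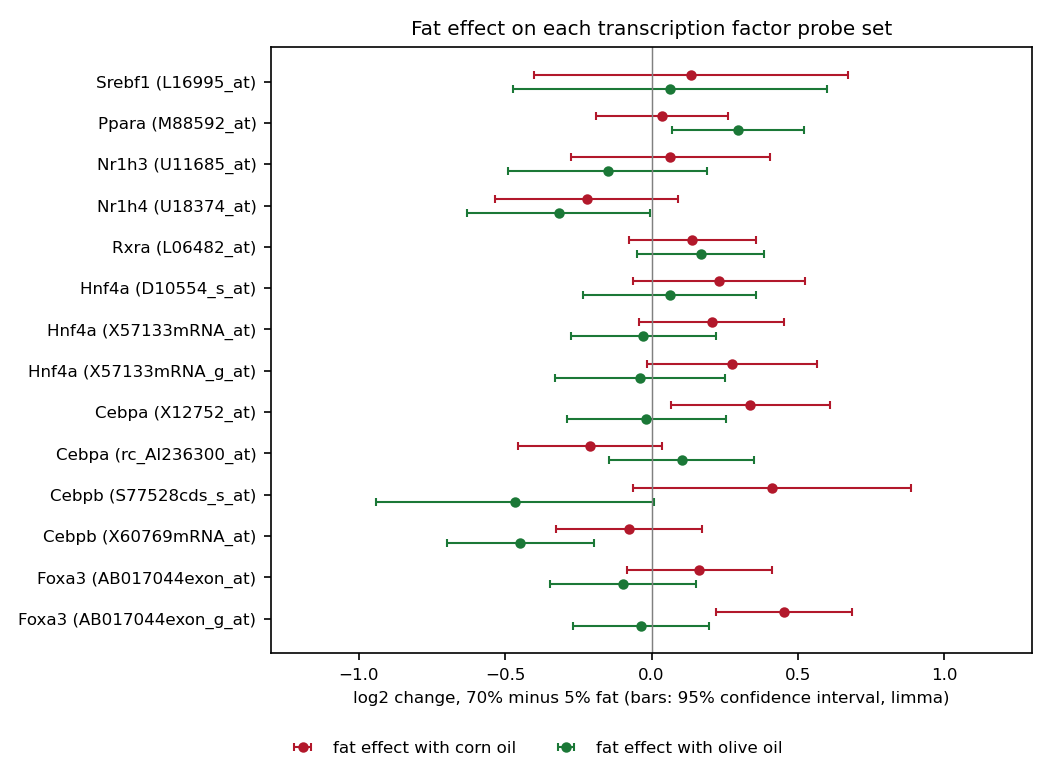
Fat effect (70% minus 5% fat, log2) of each member probe set with corn oil and with olive oil, with its 95% confidence interval from limma. None passed the test, and the largest effects in size were 0.45 (Foxa3) with corn oil and -0.47 (Cebpb) with olive oil.

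The oils separated several members, in a contrast where many probe sets were called. In the mean of both oil effects, corn minus olive, 7 of the 14 probe sets passed, where 24.3% of all probe sets did. Among them 2 were higher with corn oil, where 13.1% of all were, and 5 were lower, where 11.1% of all were. At 70% fat 4 passed, where 8.51% of all did, 2 of them higher (3.96% of all) and 2 lower (4.55% of all). At 5% fat 5 passed, where 19.5% of all did, and these 5 were lower (9.36% of all). The 5 lower in the mean were Srebf1, X12752_at of Cebpa, D10554_s_at of Hnf4a, AB017044exon_g_at of Foxa3 (-0.40 ± 0.08, adjusted p = 0.00213) and S77528cds_s_at of Cebpb (-0.49 ± 0.15, adjusted p = 0.0371). The 2 higher were AB017044exon_at of Foxa3 (0.31 ± 0.08, adjusted p = 0.0143) and X60769mRNA_at of Cebpb (0.29 ± 0.08, adjusted p = 0.022). At 5% fat the probe sets called were these 5 lower ones, and at 70% fat they were Srebf1 and X12752_at of Cebpa, lower, with AB017044exon_at of Foxa3 (0.44) and X60769mRNA_at of Cebpb (0.47), higher. The count of 4 at 70% fat ran from 0 to 5 when each array was left out in turn, and was 0 without pool 1 of 70% corn oil or pool 2 of 70% olive oil. Leaving out a single array ended the mean call of S77528cds_s_at for 9 arrays (adjusted p up to 0.0895) and that of X60769mRNA_at for 4 (adjusted p up to 0.0598). Nr1h3 and Nr1h4 each had a mean oil effect of 0.01, and Rxra had -0.20 (adjusted p = 0.0603).

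Probe sets of the same gene gave opposite directions for Foxa3 and Cebpb. The mean oil effect of AB017044exon_at minus that of AB017044exon_g_at was 0.71 for Foxa3 (exact permutation test, adjusted p = 0.015). For Cebpb that of S77528cds_s_at minus X60769mRNA_at was -0.77, and for Cebpa that of X12752_at minus rc_AI236300_at was -0.44 (exact permutation test, adjusted p = 0.02 and 0.042). The oil effect on Foxa3 and on Cebpb therefore has no single direction in these data. Once the 3'/5' index entered the fit as a covariate, 0 of the 14 probe sets, and 0% of all probe sets, passed in any oil contrast. That index separated the oils without overlap, so index and oil cannot be told apart. Of the stellate cell and fibroblast markers 6 of 9 were called higher with corn oil, where 11.9% of all genes were. Of the hepatocyte markers 2 of 8 were called lower, where 9.95% of all genes were, and 0 higher. Of 4 endothelial markers 2 were higher and 1 lower, and of 3 cholangiocyte markers also 2 and 1. Higher too were 1 of 7 macrophage and Kupffer cell markers and 1 of 5 lymphocyte markers. The part of these markers in the result was not tested.

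**Figure D3:**
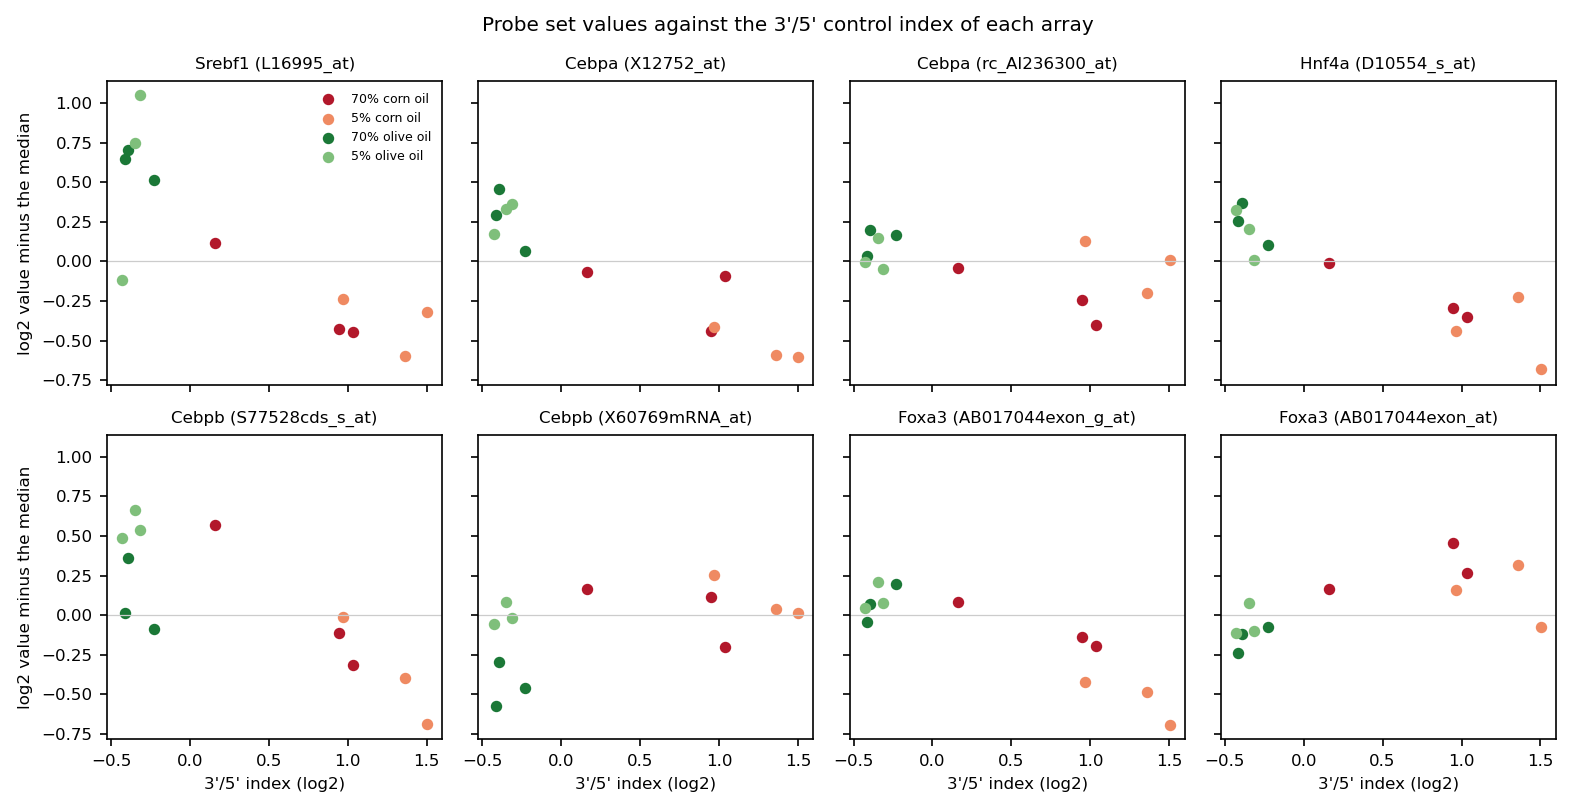
The 3'/5' index of each array (horizontal axis, log2) against the log2 difference from the median for the 7 member probe sets called between the oils and the other probe set of Cebpa (vertical axis), with 1 point per array. The corn oil arrays had an index of 0.16 or more and the olive oil arrays lay between -0.43 and -0.23, without overlap.

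Several targets of SREBP-1c fell with 70% fat. Of the 9 measured SREBF1 targets, with 1 value per gene, 5 fell with corn oil, where 1.01% of all genes did, 5 fell with olive oil, where 0.338% did, and 6 fell in the mean of both, where 1.1% did. No target on the list passed the test upward, 7 of 9 effects with corn oil and 8 of 9 with olive oil were below 0, and the median effect was -1.13 with corn oil and -0.93 with olive oil. Scd, which makes monounsaturated fatty acids, fell by 5.54 ± 0.34 on the log2 scale with corn oil and fell by 2.64 ± 0.34 with olive oil (adjusted p = 4.82e-06 and 0.00389). Pnpla3, a lipid droplet protein, fell by 4.68 ± 0.42 with corn oil and fell by 4.64 ± 0.42 with olive oil (adjusted p = 0.000107 and 0.000233). Fasn, the fatty acid synthase, fell by 1.45 ± 0.24 with corn oil and fell by 2.27 ± 0.24 with olive oil, and its probe sets with corn oil ran from -2.63 to -0.28. With the index as a covariate the corn oil calls of Fasn and of Me1, the malic enzyme, were lost (both adjusted p = 0.0506), although their effects were then -1.60 and -1.54, against -1.45 and -1.15 without it. Fasn was also not called with corn oil on the arrays of both groups alone. Acly, which supplies cytosolic acetyl-CoA, fell by 1.13 ± 0.14 with corn oil, with probe sets from -1.87 to 0.14, and Acaca, which makes malonyl-CoA, fell by 0.49 ± 0.07 with olive oil, a call lost under trend and robust moderation (adjusted p = 0.112). Beside these targets, the fat effect of Srebf1 itself was 0.13 with corn oil and 0.06 with olive oil, and the lower bounds of its intervals were -0.40 and -0.47. Insig1, which retains SREBP in the endoplasmic reticulum, and Mbtps2, a protease that cleaves it, were not called, with mean fat effects of -0.59 ± 0.17 and -0.36 ± 0.09 (adjusted p = 0.112 and 0.0558).

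Several targets of PPAR alpha rose with 70% fat. Of the 24 measured, 10 rose with corn oil, where 1.52% of all genes did, 6 rose with olive oil, where 0.211% did, and 13 rose in the mean of both, where 1.08% did, and 0 fell. The other effects did not pass the test, and 3 of the 24 were below 0 with corn oil. The median effect was 0.57 with corn oil and 0.56 with olive oil, beside fat effects of 0.04 and 0.29 for Ppara itself, neither called. Eci1, an enzyme of the oxidation of unsaturated fatty acids, rose by 1.29 ± 0.10 with corn oil and by 0.90 ± 0.10 with olive oil (adjusted p = 5.21e-05 and 0.00145), with 4 probe sets from 0.35 to 2.50 with corn oil. Cyp4a1, which hydroxylates fatty acids at the omega end, rose by 1.81 ± 0.21, Decr1, also of unsaturated fatty acid oxidation, by 1.07 ± 0.16, and Cpt2, of the mitochondrial carnitine shuttle, by 0.76 ± 0.11 with corn oil. With olive oil Acot1, an acyl-CoA thioesterase, rose by 3.70 ± 0.64, Crot, a peroxisomal carnitine transferase, by 1.56 ± 0.29 and Pex11a, of peroxisome division, by 1.03 ± 0.20. Leaving out a single array ended these olive oil calls for 4 arrays (Acot1), 9 arrays (Crot) and 9 arrays (Pex11a). The calls of Acot1 and Crot also ended under trend and robust moderation (adjusted p = 0.132 and 0.0795) and that of Pex11a after centring of arrays (adjusted p = 0.0813). With the index as a covariate 2 rose with corn oil, 8 with olive oil and 11 in the mean. The 8 corn oil calls that were lost, those of Decr1 and Cpt2 among them, kept their direction, with effects from 0.56 to 2.32, against 0.61 to 3.28 without the index, and with adjusted p from 0.0506 to 0.213. The median effect of the list with corn oil was then 0.38, against 0.57. Without pool 2 of 70% corn oil the counts that rose were 7 with corn oil, 8 with olive oil and 13 in the mean. Leaving out each array in turn gave 6 to 13 with corn oil and 1 to 9 with olive oil.

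**Figure D4:**
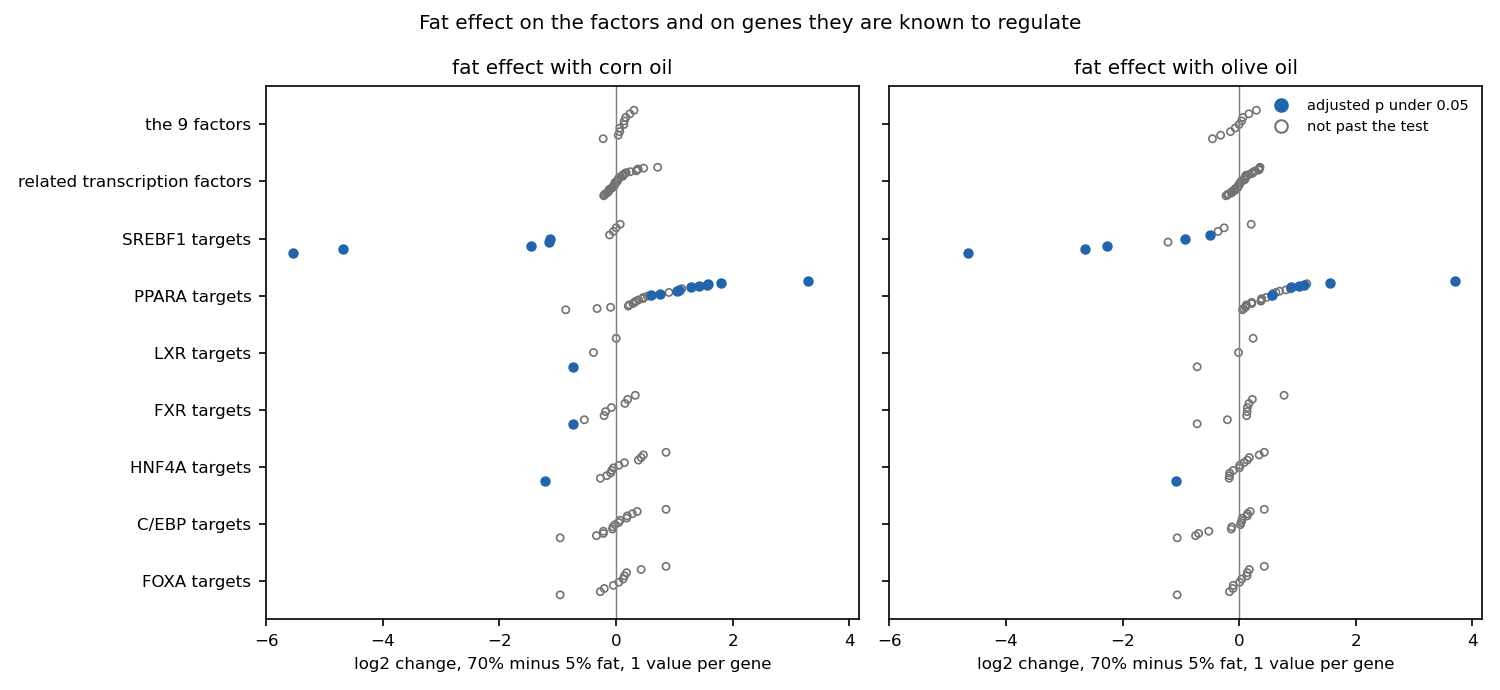
Fat effect (70% minus 5% fat, log2, 1 value per gene) with corn oil and with olive oil for the 9 factors, the related factors and the measured genes of each target list, with 1 point per gene, filled where the adjusted p was under 0.05. No factor passed the test, 5 SREBF1 targets fell with each oil, and 10 (corn oil) and 6 (olive oil) PPARA targets rose.

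Among the measured genes of the LXR, FXR, HNF4A, C/EBP and FOXA lists, Cyp7a1 and Apoa4 were the only genes called with fat level. Only 3 of the 11 listed LXR targets and 8 of the 16 listed FXR targets were measured. Over all genes 1.52% were called higher and 1.01% lower with corn oil, and 0.211% and 0.338% with olive oil. With shares so small, 0 calls on a list of this size do not set it apart. Cyp7a1, which catalyses the committed step from cholesterol to bile acids and is a member of both the LXR and the FXR list, fell by 0.74 ± 0.17 with corn oil (adjusted p = 0.043) and gave -0.72 ± 0.17 with olive oil (adjusted p = 0.132). Its 2 probe sets gave -1.20 and -0.29 with corn oil, and its corn oil call failed when any of 8 arrays was left out singly and under alternatives such as the second quantile normalization (adjusted p = 0.164) and the index as a covariate (adjusted p = 0.272). None of the other 2 LXR targets and none of the other 7 FXR targets was called with fat level. Among the 12 HNF4A targets Apoa4, an apolipoprotein of triglyceride-rich particles, fell by 1.22 ± 0.17 with corn oil and fell by 1.08 ± 0.17 with olive oil (adjusted p = 0.00272 and 0.0122), and it was the only member of that list called with fat level. After the second quantile normalization its effects were -1.10 with corn oil and -1.13 with olive oil and were not called (adjusted p = 0.0703 and 0.0527). The olive oil call also ended on the arrays of both groups alone (adjusted p = 0.0834) and when either of 2 arrays was left out (adjusted p up to 0.063), while the call of the mean fat effect held after that normalization and without each array in turn (adjusted p up to 0.0013). The 14 C/EBP and the 10 FOXA targets had 0 calls with either oil. An unadjusted p under 0.05 was reached with corn oil by 2 of the C/EBP and 2 of the FOXA targets, where 18.9% of all genes did, and with olive oil by 2 and 0, where 8.19% did. Alb, the albumin gene on both lists, gave 0.18 ± 0.07 with corn oil (adjusted p = 0.193), and Apoa1, the main apolipoprotein of HDL, gave 0.43 ± 0.15 (adjusted p = 0.141). Tdo2, which degrades tryptophan, gave 0.36 ± 0.16 with corn oil (adjusted p = 0.241). With olive oil Ass1, of the urea cycle, gave -0.75 ± 0.22, Gys2, the liver glycogen synthase, gave -0.52 ± 0.18, Igfbp1, which binds insulin-like growth factors, gave -1.06 ± 0.60 and Slc2a2, a glucose transporter, gave 0.17 ± 0.13, and none passed the test. Also without a call with olive oil were Abcb4, which exports phospholipid into bile, with 0.77 ± 0.19, and Lpl, the lipoprotein lipase, with 0.24 ± 0.25. Macrophage and Kupffer cell markers, 0 of 7 called, summed to between -2.59 and -0.89 with 70% olive oil, against 0.11 to 2.41 with 5% olive oil, and none was called with corn oil. With corn oil the 4 measured endothelial markers summed to between -0.22 and 0.15 at 70% fat, against 0.43 to 1.16 at 5% fat, and 1 of them, Kdr, fell by 0.65 ± 0.15 (adjusted p = 0.0441). The 2 erythroid markers summed to between -0.97 and -0.66 with 70% corn oil, against -0.28 to 1.13 with 5% corn oil, with 0 called. The part of these markers in the fat effects was not tested. The 3'/5' index differed by -0.56 between 70% and 5% corn oil, and the fat effects with it as a covariate are given beside the lists.

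The oil contrast also moved the target lists. With corn minus olive oil 7 of 9 SREBF1 targets were lower, where 9.95% of all genes were, and 11 of 24 PPARA targets were lower, and 5 of 12 HNF4A targets, 3 of 14 C/EBP targets and 2 of 10 FOXA targets were lower. Higher with corn oil, where 11.9% of all genes were, were 2 of 8 FXR targets, Cyp7a1 (0.45) and Baat (0.39), which joins bile acids to amino acids. Cyp7a1 was also the 1 of 3 LXR targets called higher, and Mbtps2 (0.44) the 1 of 2 genes of the SREBP processing list. The FOXA count ran from 0 to 3 when each array was left out in turn and was 0 without pool 2 of 5% olive oil. It was 1 when pool 3 of 70% olive oil, pool 1 of 5% corn oil or pool 2 of that diet was left out. Scd gave -1.51, Fasn -1.40, Acaca -0.66 and Acly -0.50 in that mean, beside -0.91 for Srebf1. With the index as a covariate 0 genes of the SREBF1, PPARA and HNF4A lists passed. The oil calls on the LXR, FXR, SREBP processing, C/EBP and FOXA lists were all lost as well, in a fit where 0% of all probe sets passed.

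Related transcription factors, other nuclear receptors and regulators of the same families among them, also had no call with fat level. Of 33 measured, 0 passed with corn oil, with olive oil or in the mean of both, and 6, 6 and 4 had an unadjusted p under 0.05, where 18.9%, 8.19% and 14.2% of all genes did. The smallest p of the mean fat effect was that of Rxrg, a further RXR, with 0.34 ± 0.08 (adjusted p = 0.052), and Pparg, the adipogenic PPAR, gave 0.34 ± 0.11 with olive oil (adjusted p = 0.353). Rara, a retinoic acid receptor, gave 0.23 ± 0.07 with olive oil (adjusted p = 0.271), and Nr2f6, an orphan receptor, gave 0.38 ± 0.13 with corn oil (adjusted p = 0.137). Between the oils 5 were higher and 6 lower with corn oil, where 11.9% and 9.95% of all genes were. Thrb, a thyroid hormone receptor, was higher by 0.43 ± 0.05, and Rxrg was lower, with -0.60 ± 0.08 and with probe sets from -1.04 to -0.17. Nr3c1, the glucocorticoid receptor, was higher by 0.35 ± 0.05, and Rarb, a retinoic acid receptor, was lower, with -0.35 ± 0.05. None of the calls of Thrb, Rxrg, Nr3c1 and Rarb held with the index as a covariate, a fit in which 0% of all probe sets passed between the oils. Their effects were then 0.31, -0.19, 0.32 and -0.49. The median standard error of the list was 0.22 in that fit, against 0.08 without the index, so the lost calls say little about these genes.

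The members that varied most over the 12 arrays were Srebf1, with an SD of 0.57, Cebpb with 0.26 and Cebpa with 0.25, on 1 value per gene. The genes whose values lay nearest to Srebf1 were Pctp and Otc, with root mean square differences over the 12 arrays of 0.21 and 0.23, against a median of 0.58 over all genes. Nearest to Cebpb were RT1-CE12 and Apba3 at 0.14 and 0.15 (median 0.31), and nearest to Cebpa were Nup155 and Akt2 at 0.08 and 0.09 (median 0.29). For Cebpb and Cebpa the gene's value averages probe sets that differed between the oils. The named genes were picked as the nearest, so their small differences describe the choice and are no test. For Srebf1 the median over all genes lay near its own SD, where a gene that hardly varied would also lie. Otc had a mean oil effect of -0.83, and 0.08 with the index as a covariate.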

How the data were processed

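RNA of rat liver pools was measured on 12 Affymetrix arrays, 3 per diet. Per the submitters' processing notes, the authors used GCOS and RMA, with no version given. The deposited values were taken as log2, the scale of RMA; the table does not write its base. For 100% of probe sets the median of the 12 values was 0 (tolerance 1e-06), so no absolute level is known, and a filter on low values could not be applied. There were 0 columns of other samples.

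Of 8799 probe sets, 59 controls were left out. The annotation gave 1 symbol to 7006 of the other 8740, several to 308 and none to 1426, and 6985 symbols were updated to GRCr8 by gene identifier. Values per gene average its probe sets (4736 genes).

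limma 3.58.1 in R 4.3.3 fitted 4 diet means to all arrays, with 8 residual degrees of freedom and eBayes without a trend. P-values are two-sided and Benjamini-Hochberg adjusted over all probe sets, or all genes for gene values, within a contrast, at a threshold of 0.05. Oil effects on probe sets and genes were tested in limma. The difference of the 3'/5' index between the oils, and differences between probe sets of a gene, were tested by exact permutation within fat levels. The code was tested on simulated data.

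The members, the target and marker lists and the tests were chosen with earlier results of these data known, so a target list's direction is not independent evidence. From each list the named genes were up to 4 with the smallest p among those called in a fat effect, or 2 with the smallest p where none was; the related factors were also named in the mean oil effect. For the 3 members of largest SD the 2 nearest genes were named. Me1, Baat and Kdr were named after their values were seen. Promoter windows are those of RefSeq's table for GRCr8. Same-numbered pools did not deviate together (18 pairs, r from -0.19 to 0.23, 3 over 0.1), so the pool numbers pair nothing. The closest 2 arrays differed by 0.195 (root mean square), so none was a duplicate. Tried as alternatives were centring of arrays, a second quantile normalization, trend and robust moderation, array weights, the pool number as a block, the arrays of both groups alone, 1 value per gene, the 3'/5' index as a covariate and leaving out each array.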

Additional observations from a re-analysis of the deposited data

How the results depend on the processing

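The count of member probe sets called with fat level was 0 under every alternative, with 2 exceptions: 1 with olive oil under array weights (X60769mRNA_at of Cebpb), and 0 to 1 with corn oil over the fits without 1 array (Foxa3, without pool 3 of 5% corn oil). The interaction stayed at 0. Of the 98 pairs of member probe set and contrast, 72 were called under no setting.

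The oil counts moved. At 70% fat, 4 became 0 with the index as a covariate, 1 on the arrays of both groups alone and 1 with 1 value per gene, and leaving out an array gave 0 to 5: 0 without pool 1 of 70% corn oil or pool 2 of 70% olive oil, 1 without pool 3 of 70% corn oil or pool 1 or 3 of 70% olive oil, and 2 without pool 2 of 5% corn oil or of 5% olive oil. At 5% fat, 5 became 0 with the index and 3 with 1 value per gene, and 7 in the mean became 0 and 3. With the pool number as a replicate block these counts were 3, 6 and 8, and 0 in each fat contrast. Whether the numbers mark a pairing is not known. With the index as a covariate the oil effect changed sign for 4 of the 14 probe sets at 70% fat, 9 at 5% fat and 5 in the mean, and the fat effect for 4 with corn oil, 0 with olive oil and 2 in the mean. Among probe sets called under some setting, it did so for D10554_s_at (0.0101 at 5% fat), X57133mRNA_at (0.12 at 5% fat, 0.15 in the mean) and X57133mRNA_g_at (0.53 and 0.53) of Hnf4a, rc_AI236300_at of Cebpa (0.23 in the mean) and S77528cds_s_at of Cebpb (0.73 and 0.87); the median standard error of the mean oil effect was then 0.233, against 0.085 without it.

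Over all probe sets the calls were 184 with corn oil (40 with the index, 53 on both groups alone, 51 after the second quantile normalization, 59 to 348 without 1 array) and 38 with olive oil (64, 97, 98 and 10 to 69, 138 with array weights, 22 after centring). The mean fat effect had 199 (123 with the index), and the oil contrasts had 0 with the index. The PPARA target counts were 5 with corn oil after the second quantile normalization, 9 with olive oil after it and 2 with olive oil after centring of arrays. The SREBF1 counts ran from 4 to 5 with corn oil and from 4 to 6 with olive oil without 1 array, were 3 and 6 with the index and were 3 with corn oil on both groups alone. The number of arrays limits the precision, and centring hides the signal over background.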
